A study of Mus musculus with 12 samples.

Results

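Genes for translation initiation and elongation factors were followed across 4 ages in RNA from a myelin-enriched fraction of mouse brain. They were taken as every gene of the deposited table whose symbol starts with Eif1 to Eif6, Eef1 or Eef2, which gave 65 of 21937 listed genes, and no row carried a pseudogene suffix. Among the 65 genes, 53 carry Eif symbols of initiation factors or their regulators, 8 carry Eef symbols of elongation factors or their regulators, and 4 (Eif2c1 to Eif2c4) carry the older symbols of the Argonaute genes, which act in small RNA silencing. The mice were male and wild type, of the inbred strain c57Bl6/N, and 3 samples were taken at each of the ages of 18 postnatal days (P18), 75 postnatal days (P75), 6 months and 24 months. The samples of an age are numbered in the labels without a statement that each is a separate animal, so the spread behind every p-value is that between these samples and may be technical. No batch is given in the sources used here. Translation has been of interest in this compartment because some mRNAs, above all that of myelin basic protein, are carried to the sheath and translated there.

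Protein synthesis starts when the small ribosomal subunit, loaded with initiator tRNA by eIF2, is brought to the cap of an mRNA by the eIF4F complex, scans to the start codon and is joined by the large subunit. Elongation is then driven by eEF1A, which delivers aminoacyl-tRNA, and eEF2, which moves the ribosome along. The main points of control are the phosphorylation of eIF2, the sequestering of the cap-binding protein eIF4E, and the phosphorylation of eEF2. Many mRNAs of the translation machinery begin with a run of pyrimidines, the terminal oligopyrimidine (TOP) tract, through which mTOR signalling adjusts their own translation.

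The samples held 20299052 to 27214385 reads in genes. The values are normalised counts, that is gene reads divided by 1 size factor per sample. The 7 myelin markers counted here (Mbp, Mobp, Cnp, Mag, Mog, Cldn11 and Mal) were present in every sample and took 10.3 to 22.2% of all normalised counts for P18, 5.28 to 7.75% for P75, 5.88 to 9.435% for 6 months and 6.11 to 8.38% for 24 months. RNA of other cells was present too. All 10 neuronal markers had values above 0 in every sample, and together they took 0.676 to 0.987% for P18, 0.924 to 1.08% for P75, 0.847 to 0.966% for 6 months and 0.806 to 0.892% for 24 months. The 9 microglial markers took 0.0272 to 0.0298%, 0.0436 to 0.0495%, 0.0515 to 0.0613% and 0.0738 to 0.0961% at the successive ages. The 8 astrocyte markers took 0.292 to 0.425%, 0.411 to 0.478%, 0.488 to 0.523% and 0.490 to 0.541%. In RNA from a bulk fraction, fewer cells or sheaths of a type and less RNA per cell cannot be told apart. The part of these other cells in the results below was not tested.

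The factors together took 1.32 ± 0.0437% of all normalised counts for P18, 1.55 ± 0.0204% for P75, 1.35 ± 0.0465% for 6 months and 1.26 ± 0.00687% for 24 months (SD, n = 3 here and in all such values). Their levels spanned a wide range. Per kilobase of exon, Eef1a1, the common form of eEF1A, stood at 37390 normalised counts per kb as a mean over the 12 samples. It was followed by Eef2 at 8586, Eef1b2 at 5335, Eef1a2 at 5334 and the scanning factor gene Eif1 at 4379.6 normalised counts per kb. The lowest tested member on this scale was Eif2c3, at 5.89 normalised counts per kb. Eif4e1b, a form of eIF4E known from oocytes, had 1.13 and 1 normalised counts in 2 of the P18 samples and 0 in the other 10 samples. It was not tested. The other 64 genes passed the filter of a normalised count of at least 10 in at least 3 samples. Counting may split or discard reads that fit near-identical copies, which leaves the levels of Eef1a1, Eif1, Eif5a, Eif4e, Eif1a, Eif1ax, Eif3j, Eif2s3x and Eif2s3y uncertain, and the strand setting of the counting is not given in the sources used here.

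**Figure D1:**
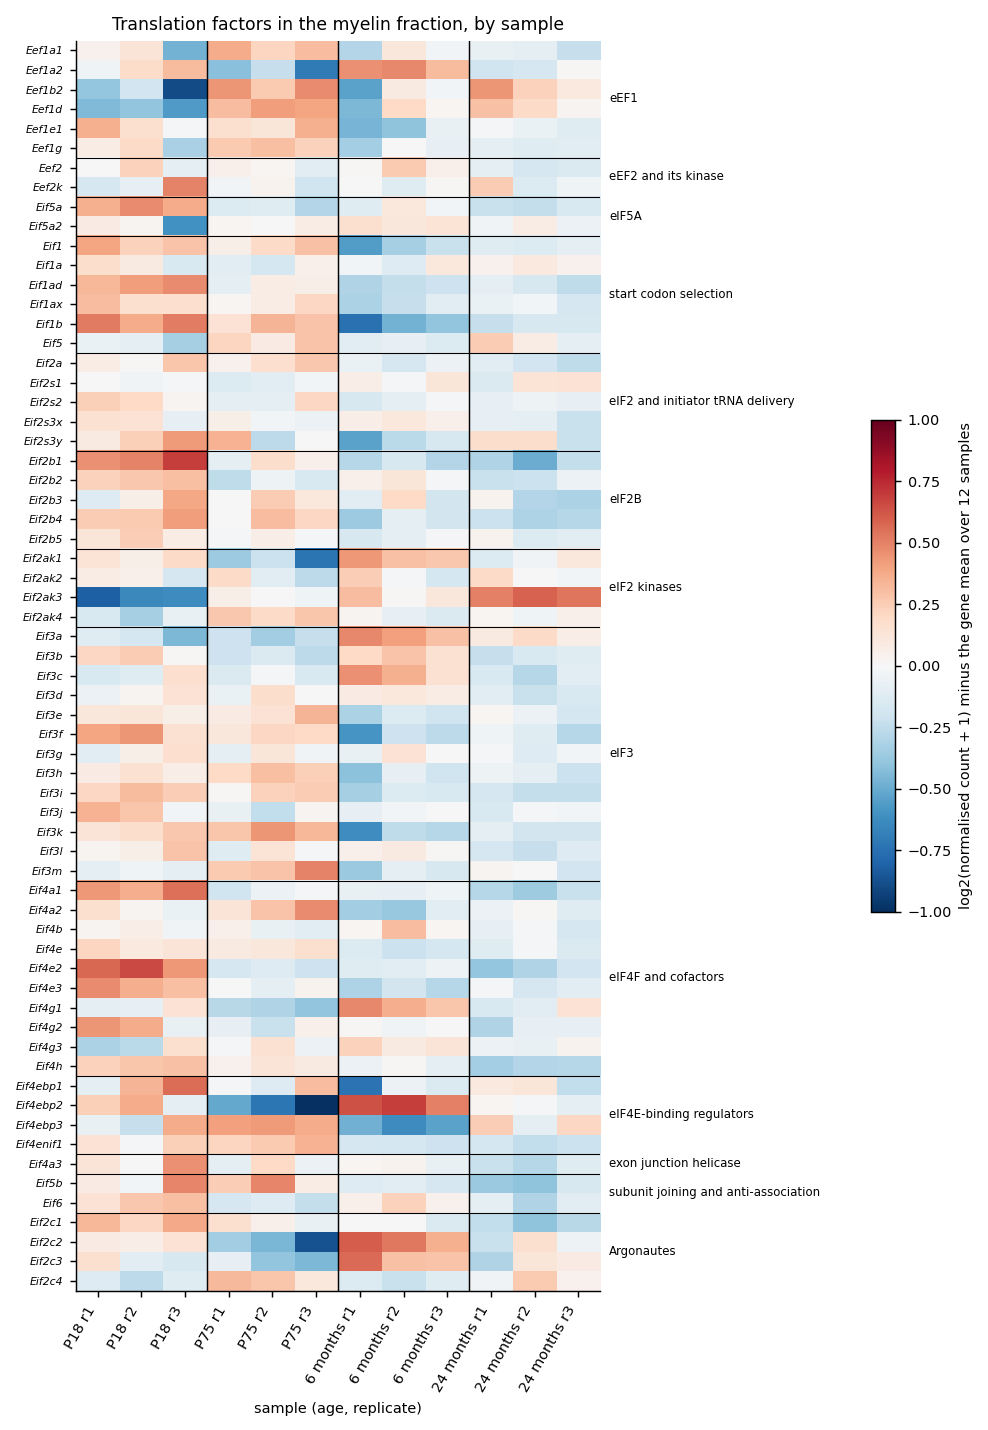
Heat map of the 64 tested genes (rows, grouped by role) in the 12 samples (columns, by age and replicate). Colour is log2(normalised count + 1) minus the mean of the gene over the 12 samples, cut at 1 and -1. Eif2b1 and Eif4e2 are highest in the P18 columns, Eif4ebp2 and Eif2c2 in the 6 months columns and Eif2ak3 in the 24 months columns.

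Ages were compared on the log2(normalised count + 1) scale in 1 limma fit over all 14987 tested genes, and a gene was called at a Benjamini-Hochberg adjusted p under 0.05. Fold changes on this scale understate the change of genes with low counts. Over the 4 ages 50 of the 64 factors differed in the limma F test, where 77.4% of all tested genes did. Among these 50 the highest mean lay at P18 in 23, at P75 in 16, at 6 months in 10 and at 24 months in 1, the eIF2 kinase gene Eif2ak3. Of all genes that differed, 33.7% had their highest mean for P18, 17.7% for P75, 22.6% for 6 months and 26.0% for 24 months. The lowest mean of the 50 factors lay at P18 in 6, at P75 in 10, at 6 months in 17 and at 24 months in 17, and of all genes that differed 36.4% were lowest for P18, 17.1% for P75, 27.6% for 6 months and 18.9% for 24 months. The 14 factors that did not pass were Eef1a1, Eef2, Eef2k, Eif1a, Eif2ak2, Eif2b3, Eif2s1, Eif2s2, Eif2s3x, Eif3g, Eif4b, Eif4ebp1, Eif4g3 and Eif5a2. These include Eef1a1 and Eef2, the most abundant factors per kilobase, and every subunit gene of eIF2 but the Y-linked Eif2s3y.

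At P75 against P18, 7 factors were called higher and 17 lower, and 40 did not pass. That is 37.5% of the factors, against 40.4% of all tested genes (21.7% higher and 18.7% lower). The median log2 fold change of the factors was -0.10, and that of all genes 0.02. At 6 months against P75, 10 were called higher and 26 lower, which is 56.2% of the factors against 52.4% of all genes (27.1% higher, 25.4% lower), with medians of -0.10 and 0.0029. At 24 months against 6 months, 3 were called higher and 12 lower, which is 23.4% against 19.2% of all genes (10.8% higher, 8.34% lower), with medians of -0.04 and 0.03. This last count rests on few libraries, as does that of all genes. Leaving out 6 months replicates 1 and 2 in turn left 6 and 6 factors called. Leaving out 24 months replicates 1, 2 and 3 left 8, 6 and 9. In that order these are 9.38, 9.38, 12.5, 9.38 and 14.1% of the factors, against 8.55, 9.99, 10.1, 8.24 and 14.9% of all genes.

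Across the whole span, at 24 months against P18, 5 factors were called higher and 31 lower, which is 56.2% of the factors against 62.5% of all genes (32.0% higher and 30.5% lower). The median log2 fold change was -0.22 over the factors and -0.01 over all genes. With quantile normalization the median of all genes moved to -0.11 and that of the factors was -0.24. Under that setting 5 factors were called higher and 34 lower, which is 60.9% of the factors against 64.2% of all genes. The calls of all genes moved toward falls too, with 4095 higher and 5527 lower, against 4801 and 4566 in the main fit. The largest falls were those of Eif2b1 (-0.89), Eif4e2 (-0.85) and Eif4a1 (-0.74), each described with its group below. The summed normalised counts of the 53 initiation factor genes were 170387 ± 3842 for P18, 163071 ± 6494 for P75, 144034 ± 3548 for 6 months and 141585 ± 1291 for 24 months. As a share of all normalised counts, in which the myelin markers weigh most at P18, they stood at 0.695 ± 0.0543%, 0.725 ± 0.0343%, 0.636 ± 0.0277% and 0.608 ± 0.0118%.

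**Figure D2:**
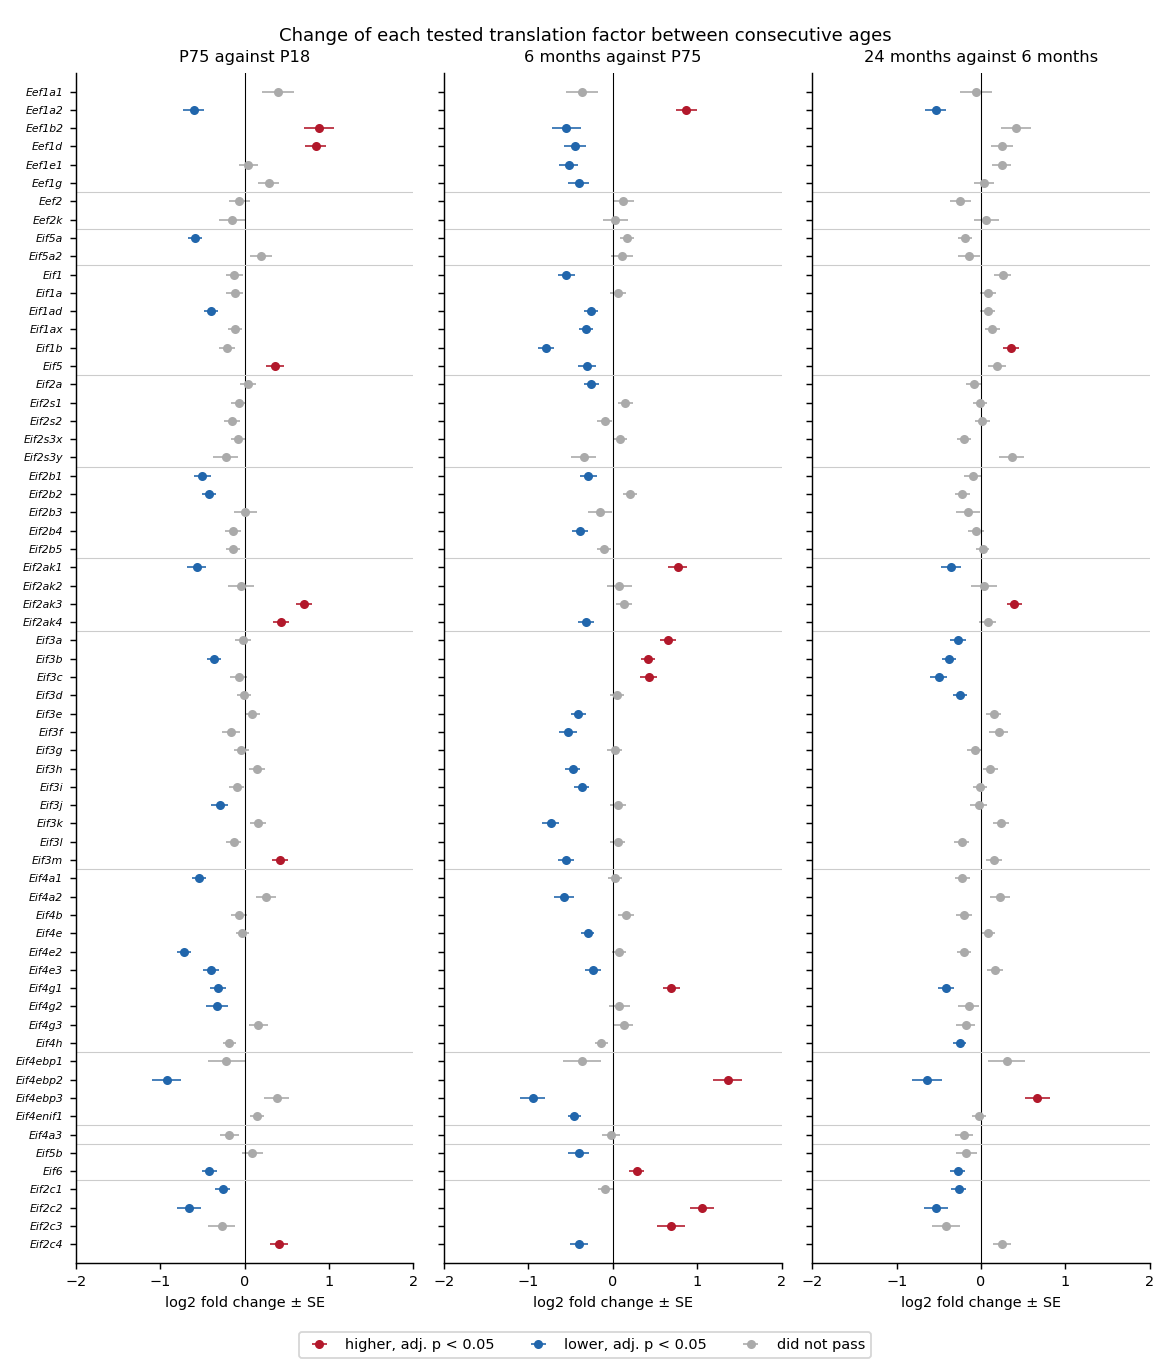
Log2 fold change of the 64 tested genes (rows, in the order of the heat map) between consecutive ages, later over earlier age, with the standard error of the limma fit as bars. Red points passed upward, blue points downward and grey points did not pass; 7 red and 17 blue points stand in the first panel, 10 and 26 in the second, 3 and 12 in the third.

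Genes of eEF1 differed in their course, as Eef1a2 fell at P75 while Eef1b2 and Eef1d rose. Eef1a1, which encodes the form of eEF1A made in most cells, had normalised counts of 94804, 100301 and 66399 in the P18 samples, 119187, 106639 and 113837 in those of P75, 75146, 99514 and 90244 in those of 6 months, and 87486, 86424 and 78591 in those of 24 months. P18 replicate 3 lay far below the other P18 samples, and all P75 samples lay above all samples of the other ages. The change at P75 had a log2 fold change of 0.40 ± 0.19 (adjusted p = 0.106), which did not pass. Eef1a2, the form known from neurons and muscle, had normalised counts of 10466, 12268 and 13456 in the P18 samples, 8067, 9198 and 6619 in those of P75, 14842, 15079.8 and 13487 in those of 6 months, and 9399, 9624 and 10890.4 in those of 24 months. Neighbouring ages did not overlap, with P75 lowest and 6 months highest. Eef1a2 fell by 0.60 ± 0.12 on the log2 scale at P75 (adjusted p = 0.00114), rose by 0.87 ± 0.12 at 6 months (adjusted p = 2.86e-05) and fell by 0.54 ± 0.12 at 24 months against 6 months (adjusted p = 0.00905). Of the 10 neuronal markers 1 was called higher and 4 lower at P75, 5 higher and 3 lower at 6 months, and 0 higher and 1 lower at 24 months against 6 months, with median log2 fold changes of -0.10, 0.32 and -0.17. Of all genes, 21.7, 27.1 and 10.8% were called higher and 18.7, 25.4 and 8.34% lower in these comparisons. The summed normalised counts of the 10 neuronal markers averaged 198621 for P18, 224249 for P75, 205406 for 6 months and 197342 for 24 months. Their part in the level of Eef1a2 was not tested.

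Eef1b2 and Eef1d encode exchange factor subunits that recharge eEF1A with GTP, and both were higher at P75. Eef1b2 had normalised counts of 9944, 11412 and 7009 in the P18 samples, 17684, 15626 and 18025 in those of P75, 8993, 13825 and 12754 in those of 6 months, and 17626, 15277 and 13936 in those of 24 months. All P75 and all 24 months samples lay above all P18 and all 6 months samples. It rose by 0.88 ± 0.17 at P75 against P18 (adjusted p = 0.00078) and fell by 0.55 ± 0.17 at 6 months against P75 (adjusted p = 0.0138). The fall did not pass on leaving out 6 months replicate 1 (-0.36, adjusted p = 0.0937), its adjusted p ranging over 0.00221 to 0.0937 in the alternatives. Eef1d had normalised counts of 3169, 3277 and 2911 in the P18 samples, 5344, 5751 and 5672 in those of P75, 3164, 4945 and 4368 in those of 6 months, and 5283, 4926 and 4405 in those of 24 months. The P18 samples were lowest, save that 6 months replicate 1 lay within their range. Eef1d rose by 0.84 ± 0.13 at P75 (adjusted p = 8.89e-05) and fell by 0.45 ± 0.13 at 6 months (adjusted p = 0.00726), and at 24 months it was still 0.64 ± 0.13 above P18 on the log2 scale (adjusted p = 0.000356). Eef1g, the gamma subunit of the same complex, and Eef1e1, a scaffold protein of the aminoacyl-tRNA synthetase complex, were called only at 6 months against P75 among the 4 comparisons. Eef1e1 fell by 0.52 ± 0.11 and Eef1g fell by 0.41 ± 0.12. The Eef1g call was lost on leaving out 6 months replicate 1 (-0.30, adjusted p = 0.0655), its adjusted p ranging over 0.00111 to 0.0655 in the alternatives.

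Windows around the annotated start sites of genes of the TOP class are shown for the pyrimidine runs they hold, which need not lie where the mRNA begins. RefSeq start sites (GRCm38.p6) were at hand for 5 of the 9 factors commonly listed as TOP mRNAs, and Eef1a2, which is not in that list, is set beside them. Each line gives 30 bases before and 30 bases from the annotated start, in the direction of the gene, with the longest run of C and T that begins with C in capitals.
Eef1a1 (chr9:78481695-78481754, minus strand): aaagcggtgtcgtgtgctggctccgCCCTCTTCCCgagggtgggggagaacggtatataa
Eef1b2 (chr1:63176801-63176860, plus strand): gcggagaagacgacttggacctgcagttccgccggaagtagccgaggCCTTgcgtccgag
Eef2 (chr10:81176601-81176660, plus strand): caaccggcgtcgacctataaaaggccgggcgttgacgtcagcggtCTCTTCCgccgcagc
Eif3f (chr7:108934385-108934444, plus strand): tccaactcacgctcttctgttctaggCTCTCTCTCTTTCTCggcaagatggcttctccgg
Eif4b (chr15:102073743-102073802, plus strand): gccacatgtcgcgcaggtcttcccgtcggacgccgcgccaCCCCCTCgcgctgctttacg
Eef1a2 (chr2:181156986-181157045, minus strand): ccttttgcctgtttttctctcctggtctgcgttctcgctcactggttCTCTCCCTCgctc
The run was 10 bases long in Eef1a1, 4 in Eef1b2, 7 in Eef2, 15 in Eif3f, 7 in Eif4b and 9 in Eef1a2. Counted from the annotated start as base 1, with the base before it as -1, the run began at -5 in Eef1a1 and -4 in Eif3f, and at 18, 16, 11 and 18 in Eef1b2, Eef2, Eif4b and Eef1a2. Of all 32851 start windows in the RefSeq table, 8.63% held a run of at least 10 bases, as in Eef1a1, and 1.84% one of at least 15, as in Eif3f. A run at least as long as that of Eef1b2 stood in 79.8% of all windows, one as long as in Eef2 and Eif4b in 26.5%, and one as long as in Eef1a2 in 12.2%. Among all factors 51 had a window, with 67 windows in all, and 22.4% of these held a run of at least 8 bases against 18.2% of all windows. Long runs stood in factors outside the TOP list too. The run was 19 bases in Eif2b5, a length reached in 0.654% of all windows, and 12 bases in Eif2s3x and Eif2s3y, reached in 4.34%. It began at -15, -1 and 2 in these genes. The letters TATAA stood on the strand of the gene in the windows of Eef1a1, Eef2 and Eif1, which is 4.48% of the windows of factors and 4.21% of all windows (5.65% of all windows on either strand, with overlapping matches counted once per window). In Eef1a1 these letters lay after the annotated start, and the annotated start may not be the one used in these samples. A match describes the letters of the window and nothing else.

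The 9 factors of the TOP class were Eef1a1, Eef1b2, Eef1d, Eef1g, Eef2, Eif3e, Eif3f, Eif3h and Eif4b. At P75 against P18, 2 were called higher and 0 lower; at 6 months against P75, 0 higher and 6 lower; at 24 months against 6 months, limma, edgeR and DESeq2 each called 0 of the 9, and 2 had an unadjusted limma p under 0.05. Of all genes, 21.7, 27.1 and 10.8% were called higher and 18.7, 25.4 and 8.34% lower in these comparisons. The 2 factors called at P75 are 22.2% of the 9, near the share of all genes called higher. Median log2 fold changes of the 9 factors in the same comparisons were 0.15, -0.41 and 0.11. The other 55 tested factors had medians of -0.13, -0.02 and -0.08. Of 80 tested genes of cytosolic ribosomal proteins, the mRNAs best known for the TOP tract, 57 were called higher and 1 lower at P75, 1 higher and 75 lower at 6 months, and 15 higher and 0 lower at 24 months against 6 months. Their medians were 0.64, -0.87 and 0.41. Ribosomal protein genes took 3.55 to 4.41% of all normalised counts in the P18 samples, 6.69 to 8.10% for P75, 3.20 to 4.68% for 6 months and 4.62 to 5.83% for 24 months. At 24 months against P18, 2 TOP factors were called higher and 2 lower, against 20 ribosomal protein genes higher and 12 lower. Of all genes, 32.0% were called higher and 30.5% lower over this span.

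**Figure D3:**
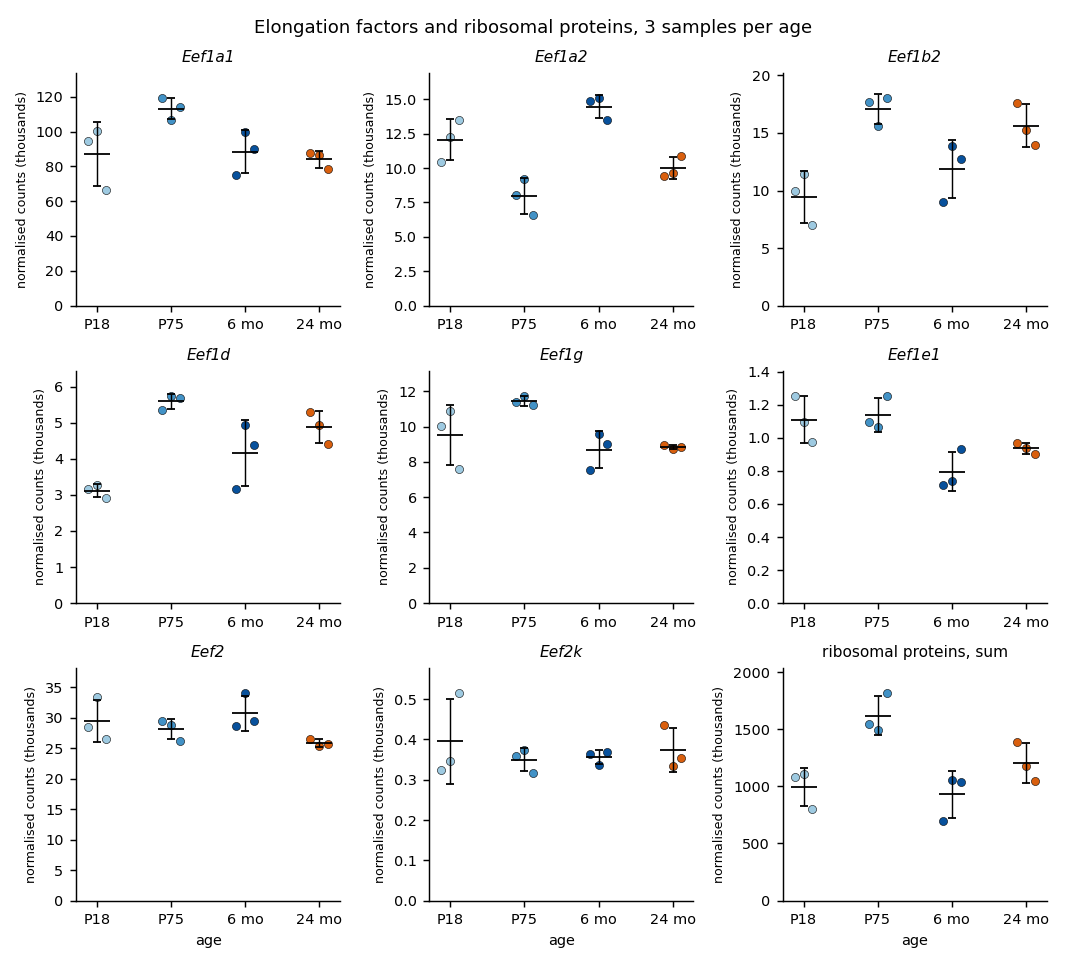
Normalised counts (axes from 0) of the 8 elongation factor genes and of the sum of cytosolic ribosomal protein genes, with 1 point per sample, 3 per age, and the mean and SD as a line and bars. Eef1a2 is lowest at P75, where Eef1a1, Eef1b2, Eef1d, Eef1g and the ribosomal protein sum are highest; Eef2 and Eef2k overlap between most ages.

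No comparison passed for the genes of the translocation step. Eef2 had normalised counts of 28508, 33326 and 26573 in the P18 samples, 29426, 28774 and 26235 in those of P75, 28667, 34039 and 29403 in those of 6 months, and 26579, 25306 and 25655 in those of 24 months. Neighbouring ages overlapped, save that all 24 months samples lay below all 6 months samples. None of its 4 comparisons passed, with log2 fold changes from -0.24 to 0.12 and adjusted p of 0.289 over the 4 ages. Eef2k, the kinase that inhibits eEF2, ranged from 317 to 515 normalised counts over the 12 samples (adjusted p = 0.769). In each of the 4 comparisons of ages limma, edgeR and DESeq2 called 0 of these 2 genes, and 0 had an unadjusted limma p under 0.05. Eif5a, whose protein carries the hypusine residue and helps ribosomes past difficult stretches, had normalised counts of 7246, 7868 and 7334 in the P18 samples, 5144, 5188 and 4624 in those of P75, 5199.6, 6082 and 5556 in those of 6 months, and 4836, 4807 and 5079 in those of 24 months. All P18 samples lay above all later samples. It fell by 0.59 ± 0.09 at P75 (adjusted p = 7.1e-05) and stood -0.61 ± 0.09 from P18 at 24 months on the log2 scale. Its paralog Eif5a2 had normalised counts of 1519, 1468 and 946 in the P18 samples, 1454, 1444 and 1517 in those of P75, 1606, 1557 and 1582 in those of 6 months, and 1399.8, 1513 and 1380.2 in those of 24 months. P18 replicate 3 was low and the other 11 samples lay between 1380 and 1606, with no comparison passing (adjusted p = 0.2 over the 4 ages).

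Of 6 genes grouped here under scanning and start codon choice, 5 were called lower and 0 higher at 6 months against P75. Of all genes, 25.4% were called lower and 27.1% higher. Eif1ad is 1 of the 5, and a role of it in start codon choice was not tested. The calls of Eif1, Eif1b and Eif1ax held in all alternatives and those of Eif1ad and Eif5 did not. At P75 against P18, 1 of the 6 was called higher and 1 lower, where 21.7% of all genes were called higher and 18.7% lower. Eif1, which keeps the scanning ribosome open until it meets a start codon, had normalised counts of 11891, 10595 and 10986 in the P18 samples, 9414, 10287 and 11039 in those of P75, 6125, 7169 and 7744 in those of 6 months, and 8319.5, 8222 and 8469 in those of 24 months. All 6 months samples lay below all other samples, and Eif1 fell by 0.55 ± 0.10 on the log2 scale (adjusted p = 0.000278). Its close paralog Eif1b had normalised counts of 5876, 5303 and 5836 in the P18 samples, 4529.5, 5188 and 4989 in those of P75, 2452, 2958 and 3122 in those of 6 months, and 3494, 3677 and 3673 in those of 24 months, again with the 6 months samples below all others. Eif1b fell by 0.79 ± 0.10 at 6 months (adjusted p = 6.03e-06) and rose by 0.35 ± 0.10 at 24 months against 6 months (adjusted p = 0.0188). The later rise did not pass on leaving out 6 months replicate 1 (0.25, adjusted p = 0.0963), 24 months replicate 2 (0.34, adjusted p = 0.0725) or 24 months replicate 3 (0.34, adjusted p = 0.0514), its adjusted p ranging over 0.00483 to 0.0963 in the alternatives. Eif1ax, the X-linked gene of eIF1A, and Eif1ad, which has an eIF1A-like domain, fell by 0.32 ± 0.09 and 0.26 ± 0.08 at 6 months. Eif1ad had also fallen by 0.40 ± 0.08 at P75. Eif5, which makes eIF2 hydrolyse its GTP at the start codon, rose by 0.36 ± 0.10 at P75 and fell by 0.31 ± 0.10 at 6 months. Single libraries decided some of these 6 months calls: Eif1ad did not pass on leaving out P75 replicate 2 (-0.23, adjusted p = 0.0593) or 6 months replicate 1 (-0.24, adjusted p = 0.0549), its adjusted p ranging over 0.00986 to 0.0593 in the alternatives, and Eif5 did not pass on leaving out P75 replicate 1 (-0.30, adjusted p = 0.0519), P75 replicate 3 (-0.26, adjusted p = 0.0758) or 6 months replicate 3 (-0.30, adjusted p = 0.0557), its adjusted p ranging over 0.00699 to 0.0758 in the alternatives. The autosomal Eif1a was called in no comparison (log2 fold changes of -0.12 to 0.08).

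No subunit gene of eIF2 itself was called between consecutive ages, while genes of its exchange factor eIF2B were lower at later ages. Eif2s1 and Eif2s2, the alpha and beta subunits, had 1242 to 1520 and 2073 to 2729 normalised counts over all samples and were called in none of the consecutive comparisons. The gamma subunit is encoded by a gene on X and a gene on Y. Eif2s3x had normalised counts of 3248, 3239 and 2760.2 in the P18 samples, 3039, 2872 and 2809 in those of P75, 3064, 3146 and 3028 in those of 6 months, and 2764, 2734 and 2509 in those of 24 months. The Y-linked Eif2s3y had normalised counts of 859, 948 and 1081 in the P18 samples, 1025, 673 and 801 in those of P75, 557, 669 and 721 in those of 6 months, and 909, 911 and 689 in those of 24 months. Neighbouring ages overlapped in both genes at P75 against P18, and neither was called in a consecutive comparison. Of the 5 genes of eIF2 and initiator tRNA delivery, limma, edgeR and DESeq2 each called 0 at P75 against P18 and at 24 months against 6 months, where 0 and 2 had an unadjusted limma p under 0.05. Over the whole span Eif2s2 and Eif2s3x were called lower at 24 months against P18 (-0.23 ± 0.09 and -0.20 ± 0.08), in Eif2s3x with overlapping samples. Eif2s2 did not pass on leaving out P18 replicate 1 (adjusted p = 0.142), P18 replicate 2 (adjusted p = 0.108), 6 months replicate 2 (adjusted p = 0.0515), 24 months replicate 1 (adjusted p = 0.0897), 24 months replicate 2 (adjusted p = 0.0754) or 24 months replicate 3 (adjusted p = 0.0889) and under the replicate block (adjusted p = 0.0565), where the change was -0.24 to -0.19, its adjusted p ranging over 0.0125 to 0.142 in the alternatives. Eif2s3x did not pass on leaving out P18 replicate 1 (adjusted p = 0.149), P18 replicate 2 (adjusted p = 0.141), 6 months replicate 2 (adjusted p = 0.0501), 6 months replicate 3 (adjusted p = 0.0516), 24 months replicate 2 (adjusted p = 0.0668) or 24 months replicate 3 (adjusted p = 0.154) and under quantile normalization (adjusted p = 0.051) or a fit of only the ages compared (adjusted p = 0.0754), where the change was -0.22 to -0.16, its adjusted p ranging over 0.00495 to 0.154 in the alternatives. Eif2a, a separate factor that can deliver initiator tRNA, fell by 0.30 ± 0.09 over the same span (adjusted p = 0.00768). It fell by 0.26 ± 0.09 at 6 months against P75, a call lost on leaving out P75 replicate 2 (-0.25, adjusted p = 0.0568), P75 replicate 3 (-0.20, adjusted p = 0.0964) or 6 months replicate 2 (-0.22, adjusted p = 0.0845), its adjusted p ranging over 0.00948 to 0.0964 in the alternatives.

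eIF2B reloads eIF2 with GTP and is the point at which phosphorylated eIF2 blocks initiation. In people, mutations in its subunits cause the leukodystrophy known as vanishing white matter disease. Of the 5 subunit genes 4 were called lower and 0 higher at 24 months against P18, where 30.5% of all genes were called lower and 32.0% higher. The fifth, Eif2b3, had a log2 fold change of -0.30 ± 0.14 (adjusted p = 0.0738). Eif2b1, the alpha subunit, had normalised counts of 944, 969 and 1113 in the P18 samples, 641, 779 and 714 in those of P75, 563, 617 and 561 in those of 6 months, and 557, 488 and 583 in those of 24 months. The P18 samples lay above all others and the P75 samples above those of 6 and 24 months. It fell by 0.50 ± 0.10 at P75 (adjusted p = 0.000885) and fell by 0.89 ± 0.10 at 24 months against P18 (adjusted p = 1.01e-06). Between P75 and 6 months it fell by 0.29 ± 0.10, and this step did not pass on leaving out P75 replicate 2 (-0.22, adjusted p = 0.109), P75 replicate 3 (-0.29, adjusted p = 0.0533), 6 months replicate 1 (-0.27, adjusted p = 0.0702) or 6 months replicate 3 (-0.27, adjusted p = 0.0704), its adjusted p ranging over 0.0123 to 0.109 in the alternatives. Eif2b4, the delta subunit, fell by 0.58 ± 0.10 and Eif2b2, the beta subunit, fell by 0.44 ± 0.09 over the whole span. Eif2b5, the catalytic subunit, fell by 0.22 ± 0.08, which did not pass on leaving out P18 replicate 2 (-0.17, adjusted p = 0.117), 24 months replicate 2 (-0.19, adjusted p = 0.106) or 24 months replicate 3 (-0.20, adjusted p = 0.0791), its adjusted p ranging over 0.014 to 0.117 in the alternatives. The summed normalised counts of the 5 genes averaged 4904 for P18, 4184 for P75, 3755 for 6 months and 3567 for 24 months.

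The 4 kinases that phosphorylate eIF2 had separate courses. Eif2ak3 encodes PERK, the kinase that senses unfolded protein in the endoplasmic reticulum. It had normalised counts of 297, 333 and 338 in the P18 samples, 545, 525 and 509 in those of P75, 648, 527 and 565 in those of 6 months, and 741, 785 and 757 in those of 24 months. The P18 samples were lowest and the 24 months samples highest without overlap, and P75 and 6 months overlapped. Eif2ak3 rose by 0.70 ± 0.09 at P75 (adjusted p = 2.94e-05) and stood 1.24 ± 0.09 above P18 at 24 months on the log2 scale (adjusted p = 1.2e-08). The step at 24 months against 6 months was 0.40 ± 0.09 (adjusted p = 0.00989), and it did not pass on leaving out 6 months replicate 2 (0.33, adjusted p = 0.0539), its adjusted p ranging over 0.00181 to 0.0539 in the alternatives. Of the 9 microglial markers 8 were called higher and 0 lower at 24 months against P18, where 32.0% of all genes were called higher and 30.5% lower. Their summed normalised counts were 19794 ± 2126 at 24 months and 6939 ± 630 at P18. The 10 markers of mature oligodendrocytes summed to 123715 ± 8378 at 24 months and 44633 ± 10151 at P18. Of these 10, 5 were called higher and 2 lower, which is 70.0% and near the 62.5% of all genes called. The part of both cell types in the level of Eif2ak3 was not tested.

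Eif2ak1 encodes HRI, the kinase that senses haem. It had normalised counts of 1022, 967 and 1058 in the P18 samples, 719.5, 800.1 and 558 in those of P75, 1255, 1141 and 1117 in those of 6 months, and 842, 907 and 998 in those of 24 months. P75 was lowest and 6 months highest, and neighbouring ages did not overlap. It fell by 0.57 ± 0.11 at P75 (adjusted p = 0.000902) and rose by 0.77 ± 0.11 at 6 months (adjusted p = 3.77e-05). At 24 months against 6 months it fell by 0.36 ± 0.11, a call lost on leaving out 6 months replicate 1 (adjusted p = 0.144), 6 months replicate 2 (adjusted p = 0.0801), 6 months replicate 3 (adjusted p = 0.0529), 24 months replicate 1 (adjusted p = 0.14) or 24 months replicate 2 (adjusted p = 0.106) and under the replicate block (adjusted p = 0.0535), where the change was -0.39 to -0.30, its adjusted p ranging over 0.00924 to 0.144 in the alternatives. Eif2ak4, which encodes the amino acid sensor GCN2, had normalised counts of 323, 285 and 340.5 in the P18 samples, 434, 409.8 and 436 in those of P75, 366, 340.0 and 324 in those of 6 months, and 364, 349 and 372 in those of 24 months. The P75 samples lay above all others. Eif2ak4 rose by 0.43 ± 0.10 at P75 (adjusted p = 0.00185) and fell by 0.31 ± 0.10 at 6 months (adjusted p = 0.0114). Eif2ak2, which encodes the double-stranded RNA sensor PKR, ranged from 109 to 156 normalised counts and was called in no comparison (adjusted p = 0.891 over the 4 ages).

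The 13 subunit genes of eIF3, the scaffold that holds the initiation factors on the small subunit, were called in both directions at 6 months. At 6 months against P75, Eif3a, Eif3b and Eif3c were called higher and Eif3e, Eif3f, Eif3h, Eif3i, Eif3k and Eif3m lower. Eif3d, Eif3g, Eif3j and Eif3l did not pass. That is 69.2% of the 13 called, against 52.4% of all genes (27.1% higher and 25.4% lower). The 3 that rose had log2 fold changes of 0.42 to 0.66 and the 6 that fell of -0.74 to -0.37, and no one of these 9 calls was lost under any alternative tried. Eif3k, a small peripheral subunit, had normalised counts of 3914, 4035 and 4295 in the P18 samples, 4323, 4844 and 4502 in those of P75, 2317, 3000.2 and 2926 in those of 6 months, and 3353, 3138 and 3146 in those of 24 months. All 6 months samples lay below all other samples, and Eif3k fell by 0.74 ± 0.10 (adjusted p = 1.3e-05). Eif3m had normalised counts of 3183, 3314 and 3182 in the P18 samples, 4079.6, 4150.0 and 4806 in those of P75, 2636, 3205 and 3047 in those of 6 months, and 3475, 3408 and 2985 in those of 24 months, with the P75 samples above all others. It rose by 0.43 ± 0.10 at P75 (adjusted p = 0.0021) and fell by 0.55 ± 0.10 at 6 months (adjusted p = 0.000162). Eif3c, a core subunit that in yeast contacts eIF1 and eIF5, had normalised counts of 3043, 3119 and 3803 in the P18 samples, 3062, 3343 and 3043 in those of P75, 4651, 4329.8 and 3762 in those of 6 months, and 3046, 2781 and 3154 in those of 24 months. The samples of 6 months were above those of P75 and of 24 months, and P18 replicate 3 lay within their range. Eif3c rose by 0.43 ± 0.10 at 6 months and fell by 0.50 ± 0.10 at 24 months against 6 months (adjusted p = 0.00452).

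At 24 months against 6 months 4 eIF3 genes were called lower and 0 higher (8.34 and 10.8% of all genes were), which were Eif3a, Eif3b, Eif3c and Eif3d. Eif3b fell by 0.38 ± 0.08. Eif3a fell by 0.28 ± 0.09, a call lost on leaving out P18 replicate 2 (adjusted p = 0.0559), P75 replicate 1 (adjusted p = 0.0583), P75 replicate 2 (adjusted p = 0.0565), P75 replicate 3 (adjusted p = 0.0527), 6 months replicate 1 (adjusted p = 0.168), 6 months replicate 2 (adjusted p = 0.12), 24 months replicate 1 (adjusted p = 0.129), 24 months replicate 2 (adjusted p = 0.0841) or 24 months replicate 3 (adjusted p = 0.125) and under no filter (adjusted p = 0.0603), quantile normalization (adjusted p = 0.0634), edgeR (adjusted p = 0.0597) or the replicate block (adjusted p = 0.0523), where the change was -0.31 to -0.23, its adjusted p ranging over 0.0149 to 0.168 in the alternatives. Eif3d fell by 0.25 ± 0.08, a call lost on leaving out P18 replicate 2 (adjusted p = 0.0537), 6 months replicate 1 (adjusted p = 0.1), 6 months replicate 2 (adjusted p = 0.115), 6 months replicate 3 (adjusted p = 0.0767), 24 months replicate 1 (adjusted p = 0.0736), 24 months replicate 2 (adjusted p = 0.153) or 24 months replicate 3 (adjusted p = 0.0841) and under quantile normalization (adjusted p = 0.0625) or the replicate block (adjusted p = 0.0607), where the change was -0.28 to -0.22, its adjusted p ranging over 0.0182 to 0.153 in the alternatives. Over the whole span 8 eIF3 genes were called lower at 24 months against P18, from -0.48 to -0.20 on the log2 scale, and Eif3a alone was called higher, by 0.37 ± 0.09. Of all genes, 30.5% were called lower and 32.0% higher. The calls of Eif3d, Eif3h and Eif3j over this span did not hold without some single libraries. Eif3d was also lost under the replicate block, and Eif3d and Eif3j in a fit of only the ages compared. Eif3h was also lost under no filter, quantile normalization and edgeR. The 3 genes had adjusted p up to 0.146, 0.168 and 0.149. The summed eIF3 counts averaged 39793 for P18, 40439 for P75, 36265 for 6 months and 34902 for 24 months. Median exon length was 5.73 kb for all factors called higher at 6 months and 3.07 kb for those called lower. In eIF3 the genes called higher have exons of 8.73 kb (Eif3a), 3.35 kb (Eif3b) and 3.51 kb (Eif3c). Those called lower range from 1.61 kb (Eif3h) to 6.72 kb (Eif3e).

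The genes grouped here with eIF4F, the cap-binding complex, include cofactors and homologues of its subunits. Of the 10 tested genes, 0 were called higher and 5 lower at P75, and 1 higher and 3 lower at 6 months. At 24 months against 6 months 0 were called higher and 2 lower. Of all genes, 18.7, 25.4 and 8.34% were called lower in these comparisons. The 5 called lower at P75 were Eif4a1, Eif4e2, Eif4e3, Eif4g1 and Eif4g2. Eif4e and Eif4a2 did not pass at this step (-0.03 ± 0.08 and 0.26 ± 0.12). Among the 5 at P75, the fall of Eif4g2 (-0.33 ± 0.13, with overlapping samples) passed on leaving out P18 replicate 3 or P75 replicate 3 but not on leaving out any other single sample. Nor did it pass under no filter (adjusted p = 0.0718), the replicate block (0.0697) or a fit of only the ages compared (0.112). Its adjusted p ranged up to 0.208. The fall of Eif4g1 did not pass on leaving out P18 replicate 3 or P75 replicate 3. Both later falls, those of Eif4g1 and Eif4h at 24 months against 6 months, were lost without some single samples, with adjusted p up to 0.0517 and 0.11. Eif4a1, one form of the eIF4A helicase, had normalised counts of 9456, 9026 and 10278 in the P18 samples, 6124, 6746 and 6905 in those of P75, 6664, 6618 and 6802 in those of 6 months, and 5749.8, 5497 and 5998 in those of 24 months. All P18 samples lay above all later samples, and Eif4a1 fell by 0.54 ± 0.09 at P75 (adjusted p = 0.000135) and fell by 0.74 ± 0.09 at 24 months against P18 (adjusted p = 1.48e-06). Eif4a2, the form known to be abundant in brain, had normalised counts of 23208, 21174 and 19869.7 in the P18 samples, 22692, 25374 and 28836 in those of P75, 16332, 15935 and 19223 in those of 6 months, and 19924, 20933 and 19096 in those of 24 months. All 6 months samples lay below all P18 and P75 samples and overlapped those of 24 months, and Eif4a2 fell by 0.58 ± 0.12 (adjusted p = 0.000808). Eif4b and Eif4h encode cofactors of the helicase. Eif4b ranged from 4312 to 6002 normalised counts and was called in no comparison. Eif4h ranged from 4842 to 7515 with no overlap between neighbouring ages, highest at P18 and lowest at 24 months, and fell by 0.57 ± 0.08 over the whole span (adjusted p = 7.39e-06).

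The cap-binding proteins differed from each other. Eif4e, which encodes the main cap-binding protein, had normalised counts of 4241, 3897 and 3999 in the P18 samples, 3881, 3945 and 4079 in those of P75, 3309.8, 3139 and 3236 in those of 6 months, and 3362, 3610.2 and 3302 in those of 24 months. Samples of 6 and 24 months lay below those of P18 and P75, and Eif4e fell by 0.30 ± 0.08 at 6 months (adjusted p = 0.0035). Eif4e2 encodes a homologue that binds the cap but not eIF4G and so acts as a repressor. It had normalised counts of 1355, 1435 and 1229 in the P18 samples, 809.7, 833 and 789 in those of P75, 836, 841 and 876 in those of 6 months, and 693, 736 and 797 in those of 24 months. All P18 samples lay far above all later samples. Eif4e2 fell by 0.72 ± 0.08 at P75 (adjusted p = 8.53e-06) and stood -0.85 ± 0.08 from P18 at 24 months (adjusted p = 2.12e-07). Eif4e3, a further homologue, had normalised counts of 430.2, 399 and 382 in the P18 samples, 311, 289 and 318 in those of P75, 250.2, 273 and 255 in those of 6 months, and 307, 277 and 288 in those of 24 months. P18 was again highest without overlap, and Eif4e3 fell by 0.40 ± 0.10 at P75 (adjusted p = 0.00338). At 6 months against P75 it fell by 0.24 ± 0.10, a call lost on leaving out P18 replicate 1 (adjusted p = 0.0511), P18 replicate 2 (adjusted p = 0.0575), P75 replicate 1 (adjusted p = 0.0999), P75 replicate 3 (adjusted p = 0.122), 6 months replicate 1 (adjusted p = 0.126), 6 months replicate 3 (adjusted p = 0.106), 24 months replicate 2 (adjusted p = 0.0574) or 24 months replicate 3 (adjusted p = 0.0539) and under no filter (adjusted p = 0.0545), DESeq2 (adjusted p = 0.0634), the replicate block (adjusted p = 0.0639) or a fit of only the ages compared (adjusted p = 0.0629), where the change was -0.24 to -0.21, its adjusted p ranging over 0.0248 to 0.126 in the alternatives.

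Of the eIF4G scaffolds, Eif4g1 had normalised counts of 2895, 2937 and 3430.1 in the P18 samples, 2564, 2519 and 2361 in those of P75, 4319.7, 3994 and 3757 in those of 6 months, and 2793, 2862 and 3419 in those of 24 months. The 6 months samples were highest and the P75 samples lowest, without overlap. Eif4g1 rose by 0.70 ± 0.10 at 6 months (adjusted p = 2.23e-05). It fell by 0.31 ± 0.10 at P75, which did not pass on leaving out P18 replicate 3 (-0.23, adjusted p = 0.0576) or P75 replicate 3 (-0.28, adjusted p = 0.0621), its adjusted p ranging over 0.00935 to 0.0621 in the alternatives. It fell by 0.42 ± 0.10 at 24 months against 6 months, which did not pass on leaving out 24 months replicate 2 (-0.38, adjusted p = 0.0517), its adjusted p ranging over 0.0014 to 0.0517 in the alternatives. Eif4g3, a second form of the scaffold, had normalised counts of 2564, 2641 and 3553 in the P18 samples, 3148, 3531 and 3050.0 in those of P75, 3745, 3395 and 3481 in those of 6 months, and 3057, 3018 and 3271 in those of 24 months and was called in no comparison. P18 replicates 1 and 2 were lowest and P18 replicate 3 was among the highest. Eif4g2, which encodes a form that lacks the site for eIF4E, fell by 0.40 ± 0.13 over the whole span and did not pass on leaving out P18 replicate 1 (-0.30, adjusted p = 0.0705), P18 replicate 2 (-0.34, adjusted p = 0.0523) or 24 months replicate 1 (-0.33, adjusted p = 0.0615), its adjusted p ranging over 0.000171 to 0.0705 in the alternatives.

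Regulators that bind eIF4E moved in opposite directions. The 4E-binding proteins hold eIF4E away from eIF4G until mTOR phosphorylates them. Eif4ebp2, the form known to prevail in brain, was the lowest of the 3 forms per kilobase in these samples. It stood at 11.65 normalised counts per kb, against 23.66 for Eif4ebp1 and 196.84 for Eif4ebp3. Uncorrected for length, its mean over the 12 samples was 67.38, above Eif4ebp1 (51.96) and below Eif4ebp3 (146.45). Its place against Eif4ebp1 thus rests on the exon lengths used (5.784 and 2.196 kb), which need not be those of the exons counted. Eif4ebp2 had normalised counts of 74.9, 82.5 and 59.3 in the P18 samples, 44.1, 38 and 30.9 in those of P75, 99.1, 103 and 90.5 in those of 6 months, and 64.4, 62.7 and 59.2 in those of 24 months. P75 was lowest and 6 months highest, and neighbouring ages did not overlap. Eif4ebp2 fell by 0.92 ± 0.17 at P75 (adjusted p = 0.000534) and rose by 1.36 ± 0.17 at 6 months (adjusted p = 9.32e-06), the largest change of any factor between consecutive ages. It fell by 0.64 ± 0.17 at 24 months against 6 months, a call lost on leaving out 6 months replicate 1 (-0.63, adjusted p = 0.0649), 6 months replicate 2 (-0.60, adjusted p = 0.0692), 24 months replicate 2 (-0.65, adjusted p = 0.057) or 24 months replicate 3 (-0.61, adjusted p = 0.05), its adjusted p ranging over 0.00651 to 0.0692 in the alternatives. Eif4ebp3 had normalised counts of 134, 121 and 184 in the P18 samples, 188, 191 and 184 in those of P75, 102, 91.4 and 97.3 in those of 6 months, and 168, 133 and 164 in those of 24 months, with the 6 months samples below all others. It fell by 0.95 ± 0.15 at 6 months (adjusted p = 7.11e-05) and rose by 0.67 ± 0.15 at 24 months against 6 months (adjusted p = 0.00754). Eif4ebp1 had normalised counts of 47.5, 64.4 and 75.3 in the P18 samples, 50.1, 46.4 and 63 in those of P75, 30.1, 48.8 and 45.7 in those of 6 months, and 54.5, 55.1 and 42.6 in those of 24 months, its samples of all ages overlapped, and it was called in no comparison. Its comparisons had an SE of 0.22, the widest of the tested factors. Eif4enif1, which carries eIF4E into the nucleus and to silent mRNA, fell by 0.46 ± 0.08 at 6 months (adjusted p = 0.000216).

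Eif5b, Eif6 and Eif4a3, which act late in initiation or outside it, were lower at 24 months than at P18. Over this span 30.5% of all genes were called lower and 32.0% higher. The course of Eif6 was not a steady fall. It fell by 0.42 ± 0.09 at P75, rose by 0.29 ± 0.09 at 6 months and fell by 0.28 ± 0.09 at 24 months against 6 months. Its rise and its later fall did not hold without some single samples. The changes over the whole span were as follows. Eif5b, which joins the ribosomal subunits, fell by 0.49 ± 0.13 (adjusted p = 0.00275), Eif6, which keeps free large subunits apart, fell by 0.41 ± 0.09 (adjusted p = 0.00069), and Eif4a3, the helicase of the exon junction complex, fell by 0.41 ± 0.11 (adjusted p = 0.00382). Among the Argonaute genes, Eif2c2 (Ago2), which encodes the Argonaute that can cut its target, had normalised counts of 183, 181 and 191 in the P18 samples, 135, 125 and 94 in those of P75, 263, 249 and 221 in those of 6 months, and 148, 192 and 167 in those of 24 months. P75 was lowest and 6 months highest without overlap between neighbouring ages. Eif2c2 fell by 0.66 ± 0.14 at P75 (adjusted p = 0.00167) and rose by 1.06 ± 0.14 at 6 months (adjusted p = 1.73e-05). It fell by 0.54 ± 0.14 at 24 months against 6 months, a call lost on leaving out 6 months replicate 1 (-0.48, adjusted p = 0.078), 6 months replicate 2 (-0.52, adjusted p = 0.06) or 24 months replicate 1 (-0.44, adjusted p = 0.0782), its adjusted p ranging over 0.00427 to 0.0782 in the alternatives. Eif2c3 (Ago3) rose by 0.69 ± 0.16 at 6 months as well, while Eif2c4 (Ago4) rose by 0.41 ± 0.11 at P75 and fell by 0.40 ± 0.11 at 6 months. Eif2c1 (Ago1), the most abundant of the 4 by counts per kilobase, had a lower mean at each later age and fell by 0.61 ± 0.09 over the whole span (adjusted p = 1.35e-05).

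A difference between the courses of paralogs was tested on their log2 ratio per sample, from which the size factor cancels except for the pseudocount of 1. The test was an exact permutation test of the F statistic over all 15400 partitions of the 12 samples into 4 groups of 3, adjusted over 9 pairs, with 6.49e-05 as the smallest raw p it can give. The ratio differed between ages in 8 of 9 pairs. Single genes differed over the 4 ages in 77.4% of all tested genes (limma F test). Ratios of genes that are not paralogs were not tested, so the count is not particular to paralogs. The log2 ratio of Eef1a2 to Eef1a1 was -2.84 ± 0.47 for P18, -3.84 ± 0.29 for P75, -2.60 ± 0.23 for 6 months and -3.08 ± 0.20 for 24 months (adjusted p = 0.00808, exact permutation). As a share of the counts of both genes, uncorrected for length, Eef1a2 made up 12.6% for P18, 6.59% for P75, 14.2% for 6 months and 10.6% for 24 months. The P75 samples had the lowest shares. P18 replicate 3 had the highest, at 16.9%, while the other P18 samples and all 24 months samples lay below all 6 months samples. Eif4a2 over Eif4a1 was 1.16 ± 0.18 for P18, 1.95 ± 0.09 for P75, 1.35 ± 0.13 for 6 months and 1.80 ± 0.13 for 24 months (adjusted p = 0.00195, exact permutation). P18 and 6 months lay below P75 and 24 months without overlap.

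Eif4ebp2 over Eif4ebp1 had the widest span, with log2 ratios of 0.22 ± 0.51 for P18, -0.49 ± 0.45 for P75, 1.24 ± 0.39 for 6 months and 0.30 ± 0.15 for 24 months (adjusted p = 0.00386, exact permutation). Eif4e2 over Eif4e was -1.60 ± 0.14 for P18, -2.29 ± 0.07 for P75, -1.92 ± 0.05 for 6 months and -2.21 ± 0.14 for 24 months (adjusted p = 0.00175, exact permutation), with P18 highest and 6 months above P75 without overlap. Eif4e3 over Eif4e was -3.32 ± 0.05 for P18, -3.69 ± 0.06 for P75, -3.63 ± 0.10 for 6 months and -3.55 ± 0.13 for 24 months (adjusted p = 0.0163, exact permutation), and here the 3 later ages overlapped. Eif4g3 over Eif4g1 was -0.09 ± 0.12 for P18, 0.38 ± 0.10 for P75, -0.18 ± 0.07 for 6 months and 0.05 ± 0.10 for 24 months (adjusted p = 0.00263, exact permutation), with P75 above all other samples. Eif5a2 over Eif5a was -2.54 ± 0.37 for P18, -1.76 ± 0.13 for P75, -1.82 ± 0.14 for 6 months and -1.78 ± 0.11 for 24 months (adjusted p = 0.0163, exact permutation), with all P18 samples below all others. Eif1b over Eif1 moved in a narrow band, -0.98 ± 0.06 for P18, -1.06 ± 0.08 for P75, -1.30 ± 0.02 for 6 months and -1.21 ± 0.05 for 24 months (adjusted p = 0.00175, exact permutation), and P18 and P75 lay above 6 and 24 months.

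The pair that did not pass was Eif2s3y over Eif2s3x, with log2 ratios of -1.68 ± 0.29 for P18, -1.82 ± 0.26 for P75, -2.25 ± 0.20 for 6 months and -1.68 ± 0.16 for 24 months (adjusted p = 0.0569, exact permutation). Eif2s3y made up 23.9% for P18, 22.1% for P75, 17.4% for 6 months and 23.8% for 24 months of the counts of both genes. The 6 months ratios lay below those of P18 and 24 months, and the other ages overlapped. It passed when single samples were left out: without P18 replicate 1 (span of the age means 0.69, adjusted p = 0.0438), without P75 replicate 1 (0.57, adjusted p = 0.0414) and without P75 replicate 2 (0.57, adjusted p = 0.0384) in the exact permutation test, the adjusted p of which ranged over 0.0384 to 0.198 in the alternatives.

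**Figure D4:**
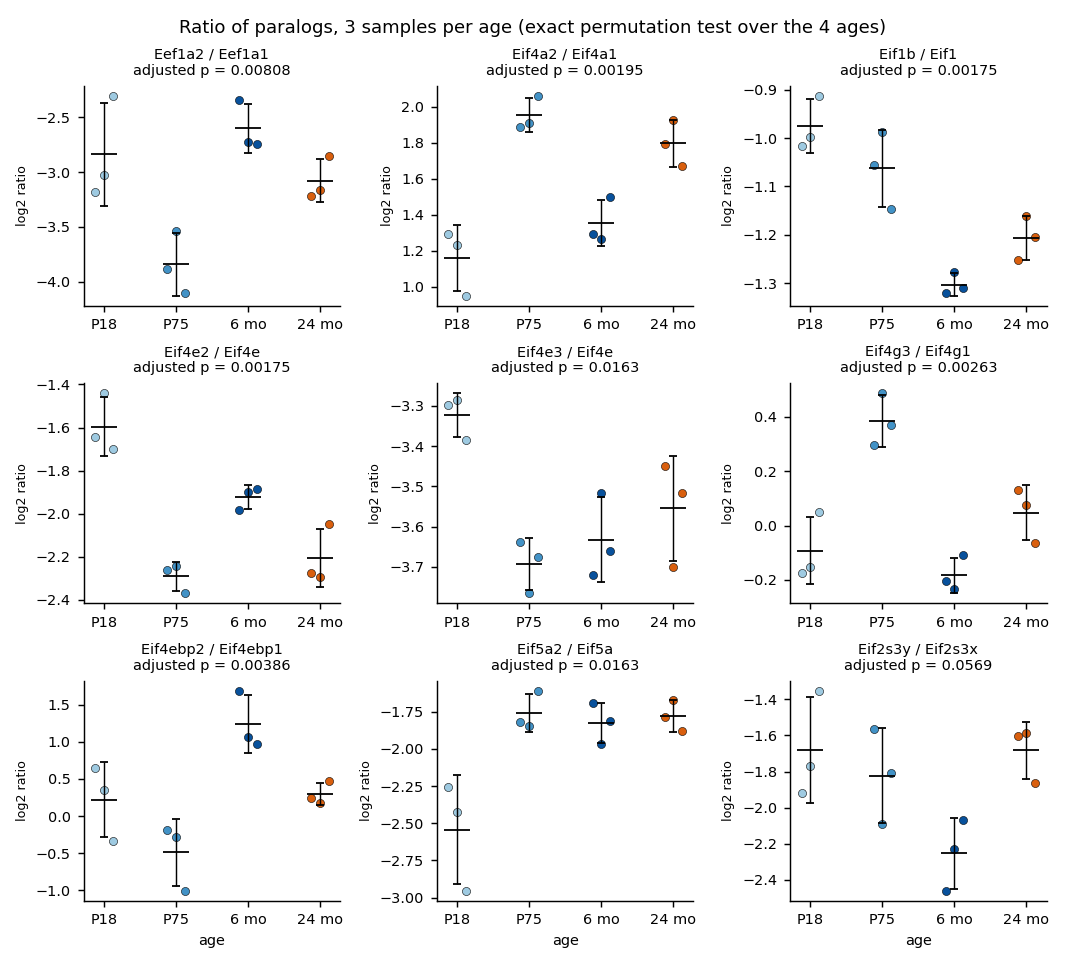
Log2 ratio of normalised counts within 9 pairs of paralogs, with 1 point per sample, 3 per age, and the mean and SD as a line and bars. Each panel has its own axis, which need not include 0, and gives the adjusted p of the exact permutation test; the ratio of Eef1a2 to Eef1a1 is lowest at P75 and highest at 6 months.

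Exon length moved with the direction of change, among the factors as among all genes. At 6 months against P75, the factors called higher had a median exon length of 5.73 kb and those called lower 3.07 kb, and all genes called higher and lower had 5.22 and 3.30 kb. At 24 months against 6 months, the 3 factors called higher had a median of 1.125 kb and the 12 called lower 5.61 kb. Over all genes the medians were 3.50 and 5.99 kb. The 3 factors spanned 0.744 to 6.026 kb, and the calls of Eif1b and Eif2ak3 among them were lost without some single samples. At P75 against P18 the medians were 6.49 and 4.33 kb for the factors and 4.89 and 4.28 kb for all genes. Eif4ebp3 (0.744 kb), Eif1b (1.125 kb) and Eif3h (1.61 kb) are the shortest of the tested factors, and all 3 were called lower at 6 months. The next shortest, Eif2b2 (1.885 kb) and Eif3g (1.98 kb), did not pass. Eif2c3 (16.6 kb) and Eif2c2 (14.03 kb), both Argonaute genes, are the longest, and both were called higher at 6 months. The next longest, Eif4g3 (11.06 kb) and Eif4g2 (10.17 kb), did not pass, and Eif5b (9.75 kb) was called lower. Eef1a2 (2.08 kb) rose at the same step and is short. The lengths are of all exons of a gene in the GENCODE M21 annotation, and the part of length in the changes was not tested.

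**Figure D5:**
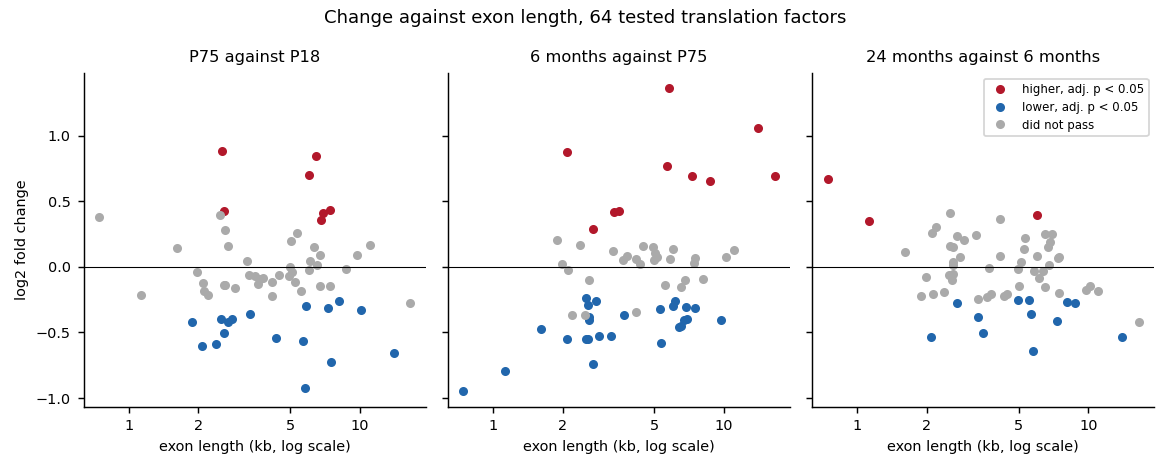
Log2 fold change of the 64 tested factors (vertical axis) against exon length in kb (horizontal axis, log scale) for the 3 comparisons of consecutive ages, later over earlier age. Red and blue points passed upward and downward. In the middle panel the 2 longest genes, Eif2c3 and Eif2c2, rose and the shortest, Eif4ebp3 and Eif1b, fell.

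Other genes of translational control were counted in the same fit, from 55 genes in 7 lists. At P75 against P18, 6 were called higher and 12 lower; at 6 months against P75, 17 and 14; at 24 months against 6 months, 3 and 7; and at 24 months against P18, 13 and 18. These are 32.7, 56.4, 18.2 and 56.4% of the 55 genes, near the shares of all genes called in the same comparisons (40.4, 52.4, 19.2 and 62.5%). Their medians were -0.01, -0.03, -0.04 and -0.09. Cpeb1, which represses mRNAs with a cytoplasmic polyadenylation element, rose by 0.58 ± 0.11 at P75 and stood 1.35 ± 0.11 above P18 at 24 months (adjusted p = 2.1e-08). Its relatives Cpeb4 and Cpeb3 rose by 2.23 ± 0.27 and 0.79 ± 0.09 at 6 months and fell by 1.23 ± 0.27 and 0.71 ± 0.09 at 24 months against 6 months. Mtor, the kinase that acts on the 4E-binding proteins, rose by 0.51 ± 0.10 at P75, whereas Akt1s1, which encodes an inhibitory partner of mTOR, fell by 0.44 ± 0.10 at P75 and stood -0.85 ± 0.10 from P18 at 24 months. Paip1, a partner of the poly(A)-binding protein, rose by 0.33 ± 0.08 at P75 and fell by 0.86 ± 0.08 at 6 months (adjusted p = 9.27e-07).

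Around the eIF2 pathway, 1 of 9 genes of the integrated stress response was called at P75 against P18, as lower, where 40.4% of all genes were called. Over the whole span 3 were called higher and 2 lower, which is 55.6% of the 9 genes and near the 62.5% of all genes called. Ppp1r15a, which encodes the inducible subunit of the eIF2 phosphatase, fell by 0.97 ± 0.13 over the whole span (adjusted p = 7.47e-06). Among 6 genes of hypusine and diphthamide synthesis, which modify eIF5A and eEF2, 1 was called higher and 2 lower at 6 months against P75, where 52.4% of all genes were called. Dph1, which acts in the first step of diphthamide synthesis, rose by 1.46 ± 0.19 (adjusted p = 9.41e-06). Of 9 termination and recycling genes 0 were called higher and 5 lower at 24 months against P18, where 30.5% of all genes were called lower. Among these was Mcts2, a retrogene copy of the recycling factor gene Mcts1 and so of uncertain level, at -0.90 ± 0.12. Rps6kb2, an S6 kinase gene, rose by 0.76 ± 0.13 at 24 months against 6 months (adjusted p = 0.00162). Dhx29, a helicase that helps scanning through structured leaders, fell by 0.48 ± 0.11 at the same step and did not pass on leaving out 6 months replicate 1 (-0.41, adjusted p = 0.0572) or 24 months replicate 1 (-0.38, adjusted p = 0.0557), its adjusted p ranging over 0.00267 to 0.0572 in the alternatives.

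The genes whose log2 values followed Eef1a1 and Eef1a2 most closely over the 12 samples were looked up among all tested genes outside the factors. For Eef1a1 they were Rpl4 (Pearson r = 0.944), Nudt4 (0.944) and Rpl3 (0.933), of which Rpl4 and Rpl3 encode ribosomal proteins of the large subunit. For Eef1a2 they were Ap2a1 (0.994), an adaptor subunit of clathrin coats, Lynx1 (0.983), a modulator of nicotinic receptors, and Rabgef1 (0.982), an exchange factor for a Rab GTPase. These coefficients rank likeness over samples that share libraries and ages, and they carry no test.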

How the data were processed

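RNA from a myelin-enriched light membrane fraction of mouse brain was sequenced in 12 samples, 3 at each of 4 ages. Per the submitters' processing notes the authors used TopHat, HTSeq and DESeq with the mm9 build; versions, strand setting, library preparation and batches are not given in the sources used here. The authors deposited 1 table of normalised counts per gene, a signal equal to gene reads divided by a size factor per sample. Every low value, up to 200 reads, was a whole multiple of 1 read (100% within 0.1 read), so whole reads could be recovered; all columns were mapped to a sample. Genes at 10 or more in at least 3 samples were tested with limma 3.58.1 (R 4.3.3) on log2(value + 1), with a trend on mean level and 1 spread over the 4 ages, and p-values were adjusted over all 14987 genes at 0.05. edgeR 4.0.16 and DESeq2 1.42.0 were run on the recovered reads as alternatives, beside a pseudocount of 8, no filter, a filter at 50, quantile normalization, a replicate block, only the ages compared, and each of 12 samples left out. The fits were tested on simulated data. Ratios of paralogs were tested in Python 3.11.15.

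The members and lists were chosen with earlier results of these data known. One marker of the myelin list is not reported here. Values in every sample were given for the paralog pairs, for the 5 largest rises and 5 largest falls among called factors with a mean of at least 50 in each consecutive comparison, and for the 5 highest levels per kilobase; Eif2b1 was added after its values were seen. Up to 4 pathway genes were named per comparison by lowest adjusted p, and 3 genes by likeness. Exon lengths were the union of exons in GENCODE M21, at hand for 14832 tested genes (99.0%) and all 65 factors. No coordinates come from the deposited table; start windows are from RefSeq, GRCm38.p6. The labels number samples within an age, and no 2 samples of an age agreed within sampling noise (chi-square per degree of freedom 9.17 or more).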

Additional observations from a re-analysis of the deposited data

How the results depend on the processing

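No factor that was called changed direction under any of the alternatives run. In all alternatives 20 of 24 called factors stayed past the threshold at P75 against P18, 27 of 36 at 6 months against P75, 4 of 15 at 24 months against 6 months (Eef1a2, Eif3b, Eif3c and Eif4ebp3) and 27 of 36 at 24 months against P18. With single samples left out, 21 to 25, 31 to 38, 6 to 19 and 28 to 38 factors were called in these comparisons, and 44 to 53 over the 4 ages. The counts of all genes called then ranged over 5117 to 6328, 6572 to 8518, 1230 to 3966 and 8482 to 9420, and over 10937 to 11905 for the 4 ages. At 24 months against 6 months the main count of 15 became 6 and 6 without 6 months replicates 1 and 2. It became 8, 6 and 9 without 24 months replicates 1, 2 and 3. The count over all genes, 2876, became 1279, 1495, 1510, 1230 and 2221 without the same samples in turn. edgeR called 24, 37, 14 and 35 factors (37.5, 57.8, 21.9 and 54.7%), against 39.9, 53.1, 21.3 and 62.4% of all genes. DESeq2 called 27, 37, 17 and 37 factors (42.2, 57.8, 26.6 and 57.8%), against 39.4, 51.9, 21.8 and 61.0% of all genes. The ratio of Eif2s3y to Eif2s3x spanned 0.47 to 0.69 with single samples left out and passed without P18 replicate 1 (0.69), P75 replicate 1 (0.57) or P75 replicate 2 (0.57). The other 8 ratios stayed past the threshold in all alternatives run. With the replicate number as a block, 24, 35, 10, 33 and, over the 4 ages, 46 factors were called. In the 4 comparisons these are 37.5, 54.7, 15.6 and 51.6% of the factors, against 39.2, 51.1, 17.2 and 61.3% of all genes. Over the 4 ages 11377 of all genes were called under the block, against 11597 in the main fit. The deviations of 18 same-numbered pairs of samples correlated from -0.185 to 0.165, with 3 over 0.1, so the numbers were not taken to pair the samples. Depth limits most the factors with a mean under 100 normalised counts, Eif4ebp1, Eif4ebp2 and Eif2c3.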
